A study of Mus musculus with 18 samples.

Results

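Long noncoding RNAs are transcripts that carry no long open reading frame and act, where a role is known, as RNA. Malat1 and Neat1 are made side by side and stay in the nucleus. Malat1 gathers at nuclear speckles, stores of splicing factors, while Neat1 is the scaffold of paraspeckles, bodies built from RNA-binding proteins. Gas5 carries box C/D small nucleolar RNAs (snoRNAs) in its introns, and its spliced transcript is known for binding the glucocorticoid receptor and for its coupling to translation. Kcnq1ot1, Meg3 and H19 come from imprinted clusters, where the maternal and the paternal copy are read unequally. Kcnq1ot1 is a long unspliced paternal transcript that silences neighbouring genes in cis, and Meg3 and H19 are maternal transcripts that also host microRNAs.

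These 6 genes were taken by symbol from the merged salmon gene counts of the series, 6 of 45706 genes in all. The cells were BMC, an immortalised mouse brown preadipocyte line, used on day 7 of a differentiation started with insulin, triiodothyronine, dexamethasone, indomethacin and isobutylmethylxanthine. All libraries share that line and that treatment. The labels give 6 libraries not given norepinephrine (0 h), 6 after 4 h and 6 after 24 h of 1 µM norepinephrine, the catecholamine that starts lipolysis and heat production in brown fat. Within each time the titles number the libraries 1 to 6, and they do not say that these were separate cultures, so a p-value measures only the spread between libraries. Library totals ran between 7010742 and 26501223 counts. Levels are CPM, counts scaled to a total of 1000000 per library, with totals adjusted by trimmed mean of M values (TMM).

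The working name "abundant" did not hold for all 6. Malat1, Neat1, Kcnq1ot1 and Gas5 passed the filter on low counts, as 14788 genes did, which alone does not make a gene abundant. Among the genes tested, mean CPM placed Malat1 at rank 5, Neat1 at 45, Kcnq1ot1 at 256 and Gas5 at 2133. Per kilobase of exon, Kcnq1ot1 was at rank 8011 of 14702, so the name did not hold for it on that measure. Meg3 had 0 to 4 counts and H19 had 0 to 12 counts per library, so the data go against the name for both.

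Before any comparison, the structure of the libraries is given. Libraries with the same number resembled each other at all 3 labelled times: of the 18 such pairs, the correlation of deviations from the time means ran between 0.30 and 0.72. Numbers 3 apart (1 and 4, 2 and 5, 3 and 6) resembled each other nearly as much, with a median of 0.57 against −0.27 for all other pairs, and are called sets here. For the median gene, the number set alone accounted for 62.7% of the variance of log2 CPM and labelled time alone for 3.78%, with 3 levels each. Whether the sets are cultures, plates, days or something else is not in the labels. Immediate early genes, which adrenergic and serum signals switch on within minutes, followed the sets, summing to a mean of 253 CPM in numbers 3 and 6, 312 CPM in numbers 2 and 5 and 2248 CPM in numbers 1 and 4. By labelled time their means were 800 ± 820 CPM at 0 h, 960 ± 1040 CPM at 4 h and 1053 ± 1197 CPM at 24 h (SD, n = 6 each). The files do not settle whether the time labels, or the match of count columns to libraries, are right. Libraries were kept as labelled, and every time difference holds only if those labels are correct.

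The 24 h replicate 5 library stood apart. Genes that collect ribosomal RNA reads (Yam1 and Gm26917) took 41.5% of its counts, against 6.78% to 10.6% in the other 17 libraries, and its TMM factor was 0.43, against at least 0.91 in the others. Transcripts of adipocytes in general were present throughout, with Fabp4, a fatty acid carrier, at a mean of 2301 CPM and Adipoq, which encodes adiponectin, at 603 CPM. Ucp1, the uncoupling protein that marks brown fat, was low, at a mean of 9.34 CPM. Skeletal muscle markers summed to at most 0.19 CPM per library, endothelial markers to at most 1.48 CPM and macrophage and leukocyte markers to at most 4.23 CPM.

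The 6 genes together held 2.63% ± 0.63 of a library's counts (SD, n = 18), and Malat1 alone held 2.49%. The share was lowest in the 24 h replicate 5 library at 1.05% and highest at 3.33%. With ribosomal RNA collectors, mitochondrial ribosomal RNA and Lars2 left out of the total, the 24 h replicate 5 library had 2.91%, inside the range of 2.12% to 3.87%, and the mean was 3.14% ± 0.58. The lowest library on that total was 4 h replicate 3.

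**Figure D1:**
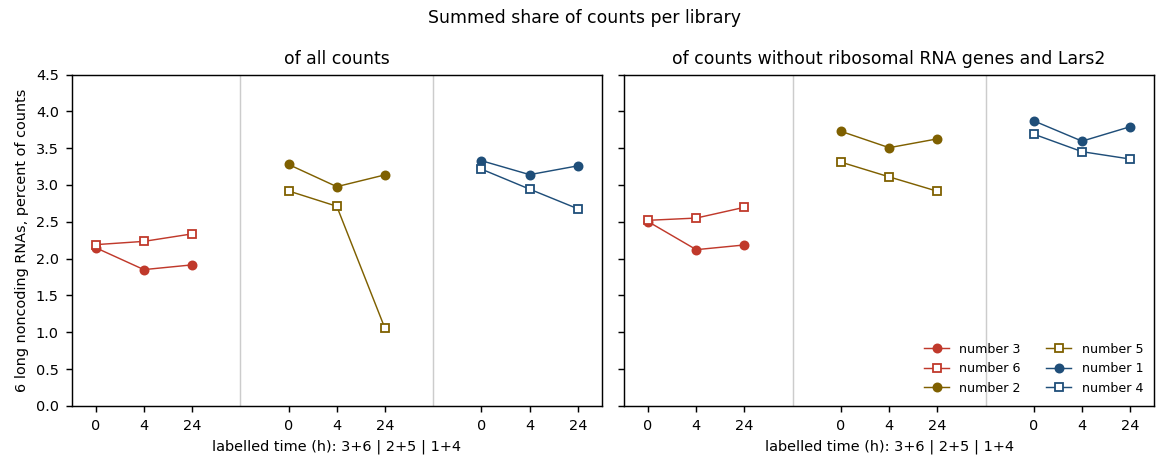
Percent of a library's counts held by the 6 long noncoding RNAs, by labelled time in hours within each set of replicate numbers; each point is a library and lines join libraries of 1 number. The 24 h replicate 5 library is at 1.05% of all counts (left) and at 2.91% once ribosomal RNA genes and Lars2 are left out (right), while numbers 3 and 6 stay low in both panels.

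Levels between genes are compared per kilobase of annotated exon, joined over all transcripts of a gene. For Gas5 the 25 annotated transcripts together cover 3760 of its 4118 bases. A shorter length would raise its level per kilobase, and other lengths were not tested. Malat1 stood at a mean of 3527 CPM per kilobase, rank 20 of 14702 genes with a length. Neat1 followed at 48.5 CPM per kilobase (rank 633), Gas5 at 21.4 (rank 1575) and Kcnq1ot1 at 3.41 (rank 8011). H19 averaged 0.077 CPM per kilobase and Meg3 averaged 0.0031. Over the 18 libraries and with these lengths, Neat1 (28.8 to 80.2 CPM per kilobase) stayed above Gas5 (17.5 to 26.4), and Gas5 above Kcnq1ot1 (2.40 to 4.45), while H19 and Meg3, both at 0 in some libraries, overlapped. The order of Neat1 and Gas5 holds only for the lengths used. Without the division by length, Malat1 had 24626 ± 5401 CPM (SD, n = 18), Neat1 had 1008 ± 287 CPM, Kcnq1ot1 318 ± 51.2 CPM and Gas5 80.4 ± 10.4 CPM.

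Malat1 (ENSMUSG00000092341) lies on the minus strand of mm10 chromosome 19, chr19:5795690-5802672, and Neat1 (ENSMUSG00000092274) on the same strand at chr19:5824708-5845478, both annotated as long intergenic RNAs. Neat1 is made as a short polyadenylated and a long form, which gene counts join. The long form of Neat1 and Malat1 share an unusual 3′ end that is not a poly(A) tail: 2 U-rich runs and an A-rich run that fold into a triple helix. RNase P cuts Malat1 just after the A-rich run and frees a tRNA-like small RNA. These ends are shown because they are the feature that joins the 2 most abundant members, and because RNA without a poly(A) tail is caught by total RNA libraries such as these. They are DNA letters of the GENCODE M21 transcripts, 5′ to 3′, with capitals for runs of at least 10 letters found in both in the same order.
Malat1 3′ end, chr19:5795922-5796101, minus strand: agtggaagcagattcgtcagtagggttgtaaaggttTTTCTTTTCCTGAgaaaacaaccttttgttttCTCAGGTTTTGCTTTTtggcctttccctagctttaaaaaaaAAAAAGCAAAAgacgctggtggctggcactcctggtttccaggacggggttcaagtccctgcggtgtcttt
Neat1 3′ end, chr19:5824708-5824827, minus strand: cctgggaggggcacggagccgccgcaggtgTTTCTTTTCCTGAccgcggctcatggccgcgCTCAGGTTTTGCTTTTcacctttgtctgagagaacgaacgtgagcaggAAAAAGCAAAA

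The shared runs were 13, 16 and 11 letters long. The A-rich run closed the annotated Neat1 transcript, with 0 bases after it, while the annotated Malat1 transcript went on for 292 bases, of which the first 60 are printed and hold the tRNA-like part.

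RefSeq promoter windows (GRCm38.p6, 250 bases before to 50 after an annotated start) were at hand for 4 of the 6 members. They were searched for TGACGTCA, the cyclic AMP response element through which adrenergic signals reach genes, and for its 5-letter core TGACG on either strand, which every full element also holds. Of 32851 windows, 1.79% held the full element and 20.8% the core. Gas5 and Meg3 have 2 windows each, of which 1 held a full element, while the Malat1 window held 3 cores and the Kcnq1ot1 window 1. That Gas5 window also had CTTTC at its annotated start, as 0.137% of windows did, a feature looked for after the window had been seen. A C followed by pyrimidines at the start is the mark of transcripts whose translation follows growth signals. These windows are printed for the expressed members that are compared by time of norepinephrine, with capitals for the full element, the cores and, in Gas5, CTTTC.
Malat1 promoter, chr19:5802623-5802922, minus strand: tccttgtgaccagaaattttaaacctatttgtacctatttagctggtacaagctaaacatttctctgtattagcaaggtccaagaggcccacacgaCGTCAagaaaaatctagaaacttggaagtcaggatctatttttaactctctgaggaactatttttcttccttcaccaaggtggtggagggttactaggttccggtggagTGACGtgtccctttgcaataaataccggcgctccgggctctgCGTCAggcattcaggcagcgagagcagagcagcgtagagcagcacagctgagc
Gas5 promoter, chr1:161034916-161035215, plus strand: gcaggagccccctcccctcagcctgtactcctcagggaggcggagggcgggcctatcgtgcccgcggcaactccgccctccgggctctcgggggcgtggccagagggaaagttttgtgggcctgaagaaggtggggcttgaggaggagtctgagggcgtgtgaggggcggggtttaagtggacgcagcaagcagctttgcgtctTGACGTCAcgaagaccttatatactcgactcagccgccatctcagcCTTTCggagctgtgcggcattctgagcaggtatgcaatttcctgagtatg
Kcnq1ot1 promoter, chr7:143296498-143296797, minus strand: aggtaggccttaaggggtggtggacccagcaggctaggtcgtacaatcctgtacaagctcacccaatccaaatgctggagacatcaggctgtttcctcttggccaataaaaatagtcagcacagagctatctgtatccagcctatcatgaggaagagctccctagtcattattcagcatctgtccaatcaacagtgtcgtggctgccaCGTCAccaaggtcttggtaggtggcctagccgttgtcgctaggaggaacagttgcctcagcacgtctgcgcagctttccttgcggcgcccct

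The first question the design asks is whether these RNAs differ after norepinephrine, and the answer rests on the time labels doubted above. None of the 4 expressed members passed edgeR's quasi-likelihood F-test (Benjamini-Hochberg adjusted p under 0.05) at 4 h or 24 h against 0 h, or at 24 h against 4 h. Of the 14788 genes, 0.0% were called in each comparison, with 173, 158 and 137 genes at an unadjusted p under 0.05. DESeq2 called 0 genes in each as well, with 190, 160 and 121 genes unadjusted. With the replicate number as a block, edgeR called 0, 1 and 0 genes, 0.00676% for 24 h against 0 h, and again no member. That fit had more genes at an unadjusted p under 0.05, namely 1461, 1155 and 757 of the 14788. Nor was any member separated without overlap between times, where 0.0203% of genes were higher and 0.0473% lower at 4 h than at 0 h, and 0.0406% higher at 24 h than at 0 h.

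Malat1 had a lowest, median and highest level of 18255, 28000 and 30968 CPM at 0 h. At 4 h these were 15960, 26367 and 28740 CPM, and at 24 h 16185, 25590 and 30165 CPM. The 3 times overlapped almost entirely, and at each of them numbers 3 and 6 were the lowest libraries. Within a number, Malat1 was lower at 4 h than at 0 h in 6 of 6, by between 0.01 and 0.20 on the log2 scale. The log2 difference of 4 h against 0 h was −0.09 (SE 0.05) with the block, 95% interval −0.19 to 0.00, and its adjusted p was 0.529.

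Neat1 had a lowest, median and highest level of 797, 984 and 1665 CPM at 0 h. At 4 h these were 606, 913 and 1410 CPM, and at 24 h 599, 955 and 1385 CPM. The ranges overlapped, and number 1 was the highest library at each time. Neat1 was lower at 4 h than at 0 h in 6 of 6 numbers, and at 24 h than at 0 h in 5 of 6. With the block, the log2 difference was −0.19 (SE 0.05, 95% interval −0.29 to −0.08) at 4 h and −0.19 (95% interval −0.29 to −0.09) at 24 h, with adjusted p of 0.235 and 0.221. These intervals are not adjusted over the genes tested, and both comparisons share the 0 h libraries.

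Gas5 had a lowest, median and highest level of 67.3, 83.7 and 90.6 CPM at 0 h. At 4 h these were 65.7, 80.9 and 98.6 CPM, and at 24 h 69.4, 78.4 and 99.3 CPM. The means, 80.5, 80.2 and 80.7 CPM, lay far closer together than the libraries of any 1 time. With the block, the log2 difference was −0.01 (95% interval −0.10 to 0.09) at 4 h against 0 h and 0.01 (95% interval −0.08 to 0.11) at 24 h against 0 h.

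Kcnq1ot1 had a lowest, median and highest level of 275, 357 and 371 CPM at 0 h. At 4 h these were 224, 292 and 329 CPM, and at 24 h 252, 312 and 414 CPM. The ranges overlapped, and the 4 h level was below the 0 h level in 5 of 6 numbers, number 5 being the exception. With the block, the log2 difference of 4 h against 0 h was −0.24 (SE 0.09, 95% interval −0.44 to −0.05), with an adjusted p of 0.429. At 24 h the level was above that at 4 h in 5 of 6 numbers, a log2 difference of 0.21 (95% interval 0.00 to 0.41, adjusted p 0.921). Labelled time alone accounted for 21.2% of the variance of Kcnq1ot1, the largest share among the 4, against 5.05% for Neat1, 1.40% for Malat1 and 0.0775% for Gas5.

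**Figure D2:**
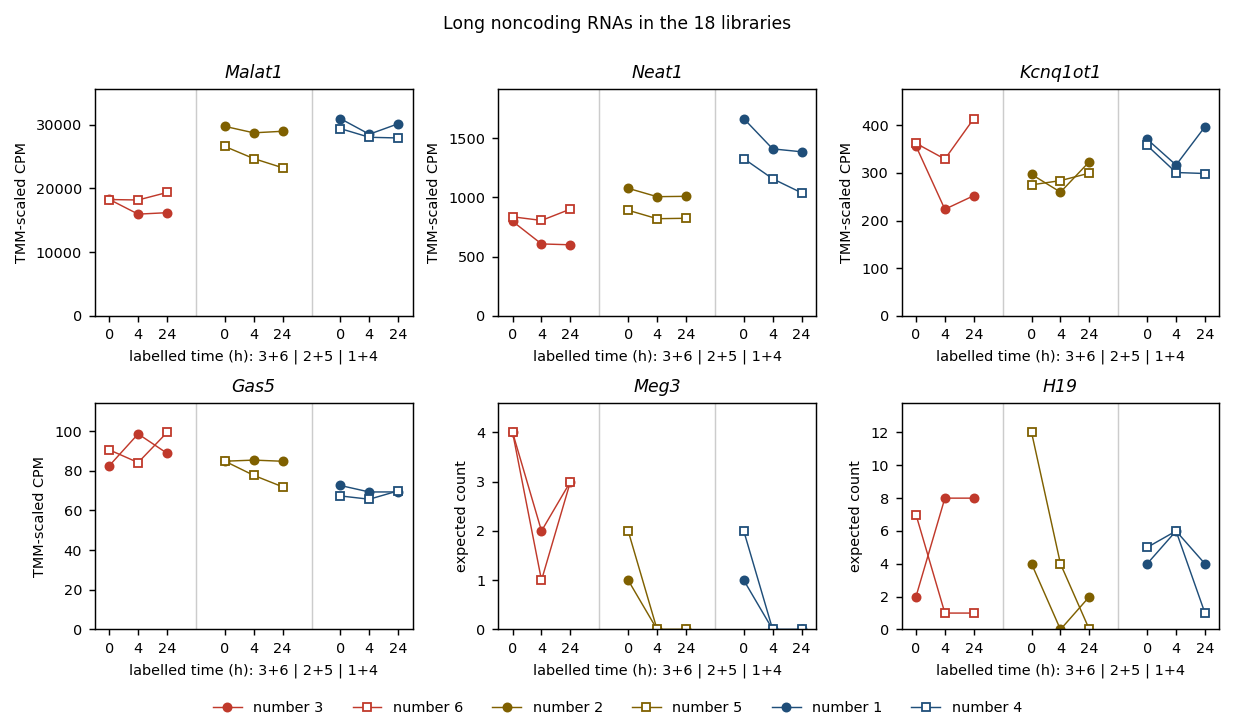
TMM-scaled CPM (Malat1, Neat1, Kcnq1ot1, Gas5) or expected counts (Meg3, H19) by labelled time in hours within each set of replicate numbers; each point is a library and lines join libraries of 1 number. Malat1 in numbers 3 and 6 lies between 15960 and 19363 CPM, below every other library, and Gas5 in numbers 1 and 4 lies between 65.7 and 72.6 CPM.

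The replicate numbers, in contrast, separated these RNAs. In edgeR's F-test of differences among the 6 numbers, with time in the model, 4 of 4 members passed, where 72.5% of all genes tested did. The adjusted p was 1.25e-11 for Malat1, 5.42e-12 for Neat1 and 3.17e-06 for Gas5. For Kcnq1ot1 it was 0.041, and the call rested on single libraries: it was kept without 0 h replicate 3 or 5, 4 h replicate 5, or 24 h replicate 2 or 4, and lost when any of the other 13 was left out (adjusted p up to 0.102). It was also lost with no filter (0.0894) and with no time term (0.113). With library totals and no scaling, Neat1 alone passed (adjusted p 0.000611), and Malat1 (0.0682), Gas5 (0.0586) and Kcnq1ot1 (0.10) did not. The number alone accounted for 97.0% of the variance of Malat1, 91.2% of Neat1, 83.5% of Gas5 and 51.4% of Kcnq1ot1. For the median gene tested it was 72.0%, so Kcnq1ot1 lay below the median gene.

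The sets were joined because their libraries look alike in these data, so their differences are a description with no p-value. Their standard errors and intervals hold only the spread of libraries within a number. The spread between the 2 numbers of a set is left out, so they are too narrow as a measure of sets. Neat1, for one, averaged 1487 CPM in number 1 and 1174 CPM in number 4, and Kcnq1ot1 278 CPM in number 3 and 369 CPM in number 6. Numbers 3 and 6 did not overlap numbers 1 and 4 for 3 of the 4 members, Malat1 and Neat1 being lower and Gas5 higher. Over all genes tested, 19.1% were higher and 19.4% lower without overlap. Numbers 3 and 6 against 2 and 5 separated 1 member, Malat1, where 14.2% of genes were higher and 15.5% lower. Numbers 2 and 5 against 1 and 4 separated none of the 4, where 17.4% were higher and 18% lower. Neat1 would be separated there without 0 h replicate 2 or 24 h replicate 4, and Gas5 without 0 h replicate 1 or 24 h replicate 5.

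Malat1 had a lowest, median and highest level of 15960, 18219 and 19363 CPM in numbers 3 and 6. In numbers 2 and 5 these were 23249, 27669 and 29756 CPM, and in numbers 1 and 4 27931, 28961 and 30968 CPM. The step was between numbers 3 and 6 and the rest, and the other sets overlapped. The log2 difference was −0.72 (SE 0.05) for numbers 3 and 6 over 1 and 4, a ratio of 0.606, and −0.61 (SE 0.05) over 2 and 5. At each labelled time by itself the difference over 1 and 4 was −0.72 in the 0 h libraries, −0.73 in the 4 h ones and −0.71 in the 24 h ones.

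By median, Neat1 was graded over the sets rather than stepped, but numbers 5 and 6 had nearly the same mean. Number 5 averaged 845 CPM and number 6 847 CPM, while number 2 averaged 1030 CPM and number 3 668 CPM. Its lowest, median and highest levels were 599, 801 and 901 CPM in numbers 3 and 6. They were 820, 948 and 1076 CPM in numbers 2 and 5, and 1039, 1356 and 1665 CPM in numbers 1 and 4. Neighbouring sets overlapped in these ranges, while the outer sets did not. The log2 difference of numbers 3 and 6 was −0.81 (SE 0.05) over 1 and 4 and −0.31 (SE 0.05) over 2 and 5, and that of numbers 2 and 5 over 1 and 4 was −0.50 (SE 0.05). Within each labelled time, 2 libraries against 2, Neat1 was lower without overlap in numbers 2 and 5 than in 1 and 4 at all 3 times, by −0.61 at 0 h, −0.49 at 4 h and −0.40 at 24 h.

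Gas5 ran the other way. Its lowest, median and highest levels were 82.5, 89.7 and 99.3 CPM in numbers 3 and 6. They were 71.9, 84.8 and 85.4 CPM in numbers 2 and 5, and 65.7, 69.3 and 72.6 CPM in numbers 1 and 4. The lowest of numbers 2 and 5 was the 24 h replicate 5 library, which has 217 Gas5 counts, and its level just overlapped the highest of numbers 1 and 4. The log2 difference of numbers 3 and 6 was 0.40 (SE 0.05) over 1 and 4 and 0.14 (SE 0.05) over 2 and 5. Within each time Gas5 was higher without overlap in numbers 3 and 6 than in 1 and 4, by 0.31 at 0 h, 0.44 at 4 h and 0.43 at 24 h.

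Kcnq1ot1 followed none of these orders. Its lowest, median and highest levels were 224, 343 and 414 CPM in numbers 3 and 6. They were 260, 290 and 324 CPM in numbers 2 and 5, and 299, 337 and 397 CPM in numbers 1 and 4. Numbers 3 and 6 held both the lowest and the highest library of all 18, and number 6 was above number 3 at each time. The log2 difference of numbers 3 and 6 over 1 and 4 was −0.09 (SE 0.09, 95% interval −0.29 to 0.11). With unscaled totals it was 0.07, the other sign. The same totals moved differences that involve numbers 2 and 5, and the part of 24 h replicate 5 in this was not tested. On them, numbers 3 and 6 over 2 and 5 were at −0.33 for Malat1, −0.02 for Neat1, 0.42 for Gas5 and 0.42 for Kcnq1ot1, against −0.61, −0.31, 0.14 and 0.13 with TMM. Without that library and with TMM, Malat1 was at −0.63. On unscaled totals, numbers 3 and 6 over 1 and 4 were at −0.56 for Malat1, −0.64 for Neat1 and 0.56 for Gas5.

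**Figure D3:**
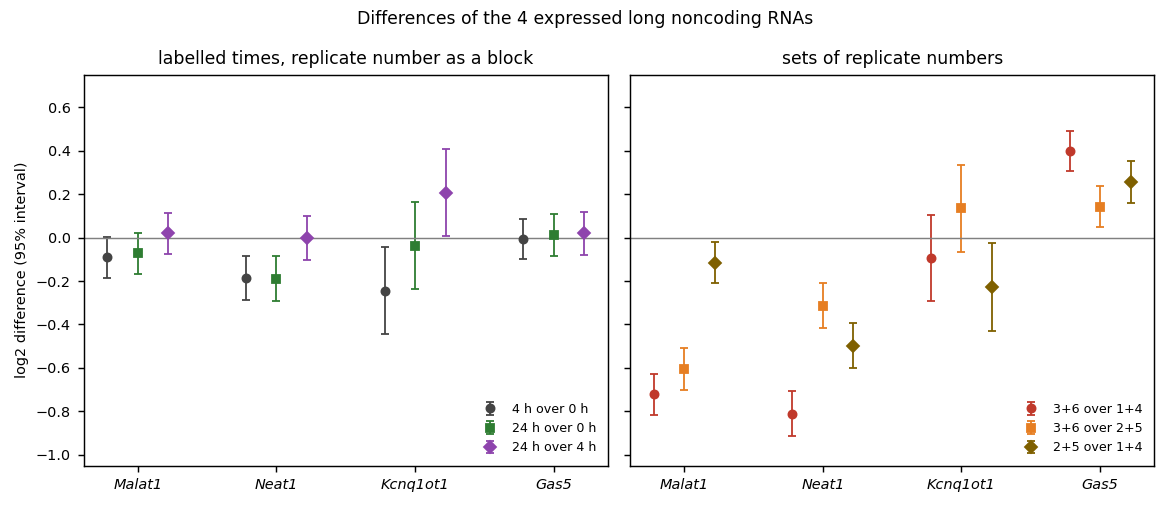
Log2 differences with 95% intervals of the 4 expressed members, between labelled times with the replicate number as a block (left) and between sets of replicate numbers (right, with no test). Malat1 is at −0.72 and Neat1 at −0.81 for numbers 3 and 6 over 1 and 4 and Gas5 at 0.40, while the time differences lie between −0.24 and 0.21.

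Ratios within a library do not depend on how libraries are scaled. Per 1000 Malat1 counts there were 5.15 ± 0.61 Gas5 counts in numbers 3 and 6, 3.03 ± 0.13 in numbers 2 and 5 and 2.37 ± 0.083 in numbers 1 and 4 (SD, n = 6 each). The 3 ranges, 4.51 to 6.18, 2.85 to 3.19 and 2.29 to 2.50, did not overlap. Neat1 had 42.5 ± 4.04, 34.7 ± 1.14 and 45.5 ± 5.85 counts per 1000 Malat1 counts in the same order of sets, so numbers 2 and 5 were low, with 33.2 to 36.2 below every other library. Kcnq1ot1 had 18.1 ± 2.79 in numbers 3 and 6, 10.8 ± 1.34 in numbers 2 and 5 and 11.6 ± 0.971 in numbers 1 and 4. A ratio shows that the members differed unequally, not which of them differed.

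**Figure D4:**
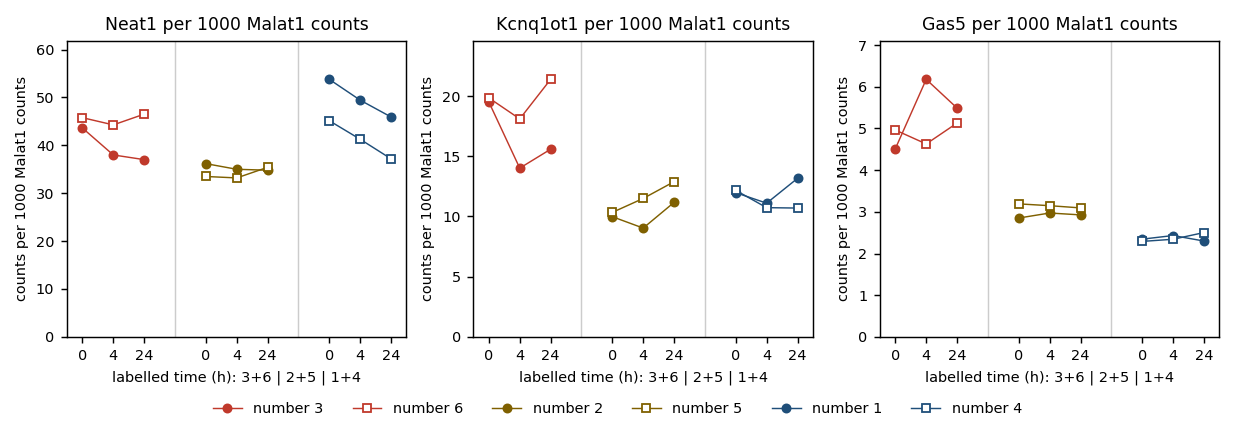
Counts of Neat1, Kcnq1ot1 and Gas5 per 1000 Malat1 counts in each library, by labelled time in hours within each set of replicate numbers. Gas5 lies at 4.51 to 6.18 in numbers 3 and 6, 2.85 to 3.19 in numbers 2 and 5 and 2.29 to 2.50 in numbers 1 and 4.

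The imprinted members other than Kcnq1ot1 were near the limit of detection. Meg3 (ENSMUSG00000021268, chr12:109541001-109571726, plus strand) had 23 counts over the 18 libraries and 0 in 8 of them. Numbers 3 and 6 held 17 of these counts, with a count in 6 of 6 libraries, against 3 counts in numbers 2 and 5 and 3 in numbers 1 and 4. Pooled over 6 libraries this was 0.128 CPM (exact Poisson 95% interval 0.0743 to 0.204) in numbers 3 and 6, 0.0307 CPM (0.00634 to 0.0898) in numbers 2 and 5 and 0.0246 CPM (0.00508 to 0.0720) in numbers 1 and 4. By labelled time, the counts were 14 at 0 h, in 6 of 6 libraries, 3 at 4 h and 6 at 24 h, in 2 libraries each. The intervals cover counting error only, and the 8 libraries with 0 counts allow up to 0.133 to 0.995 CPM, 3 counts of the scaled total. Without the filter, edgeR gave Meg3 an adjusted p of 1 in each time comparison and 0.238 among numbers.

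H19 (ENSMUSG00000000031, chr7:142575529-142578143, minus strand) had 75 counts, 0 to 12 per library. The sets held 27 counts in numbers 3 and 6, 22 in numbers 2 and 5 and 26 in numbers 1 and 4, and no set stood out. By time there were 34 counts at 0 h, 25 at 4 h and 16 at 24 h, with overlapping Poisson intervals of 0.167 to 0.337, 0.159 to 0.362 and 0.0833 to 0.237 CPM.

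Their neighbours were low as well. In the Meg3 cluster, Rian and Mirg, maternal noncoding RNAs, averaged 0.099 and 0.035 CPM, and Dlk1, the paternal gene that restrains adipocyte differentiation, averaged 1.78 ± 0.17 CPM in numbers 3 and 6, 1.26 ± 0.25 CPM in numbers 2 and 5 and 0.85 ± 0.30 CPM in numbers 1 and 4 (SD, n = 6 each). Igf2, the paternal growth factor gene beside H19, averaged 0.050 CPM. Only 2 genes of the H19 cluster were tested, and 1 was higher without overlap in numbers 3 and 6 than in 1 and 4. This was Lsp1, at 1.18 CPM in numbers 3 and 6 and 0.44 CPM in numbers 1 and 4. Over all genes tested, 19.1% were higher without overlap between these sets.

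Kcnq1ot1 (ENSMUSG00000101609, chr7:143203458-143296549, minus strand) is annotated as an antisense transcript without introns inside Kcnq1, which runs on the plus strand. Kcnq1 itself, a potassium channel gene, had 5 counts over all libraries, and no source used here gives the strand setting of the counting. Of 12 genes listed for the cluster, 6 were tested, none passed for time and 4 passed among numbers, as 72.5% of all genes tested did. Cdkn1c, an inhibitor of the cell cycle that Kcnq1ot1 is known to silence on the paternal copy, had 5.12 to 7.39 CPM in numbers 3 and 6, against 11.6 to 23.1 CPM in numbers 2 and 5 and 18.4 to 21.9 CPM in numbers 1 and 4. Its log2 difference was −1.61 (SE 0.09) for numbers 3 and 6 over 1 and 4, where Kcnq1ot1 had −0.09. Cars, a cysteine tRNA synthetase gene, was at −0.60 and Cd81, a tetraspanin gene, at −0.27, both without overlap. Nap1l4, a histone chaperone gene, was at −0.04. Of the 6 tested, 3 were lower and 0 higher without overlap in numbers 3 and 6 than in 1 and 4. Over all genes tested, 19.4% were lower and 19.1% higher. Phlda2, Slc22a18 and Ascl2, other imprinted genes of the cluster, averaged at most 0.010 CPM.

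The neighbours of Malat1 and Neat1 on chromosome 19 went both ways. Of 10 tested, 9 passed among numbers and none for time, and numbers 3 and 6 were lower than 1 and 4 without overlap for 4 and higher for 1, with a median log2 difference of −0.11 against 0.00 over all genes tested. Over all genes tested, 72.5% passed among numbers, and 19.4% were lower and 19.1% higher without overlap. Ltbp3, which encodes a binding protein of latent TGF-beta, averaged 388 CPM in numbers 3 and 6, 482 CPM in numbers 2 and 5 and 561 CPM in numbers 1 and 4. Ehbp1l1, a gene of membrane tubules, averaged 134, 91.7 and 182 CPM in the same order. An antisense gene inside Malat1, Gm37376, had 444 counts in all, against 8626113 for Malat1.

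Proteins of the bodies that these RNAs are part of were listed as well. Their counts stand beside 72.5% of all genes tested that passed among numbers, and 19.1% higher and 19.4% lower without overlap in numbers 3 and 6 against 1 and 4. Of 21 paraspeckle protein genes, 17 passed among numbers, close to that background, and none for time. In numbers 3 and 6, 8 were higher than in 1 and 4 without overlap and 1 was lower, with a median log2 difference of 0.07. Hnrnpk and Sfpq, the most abundant and both needed for Neat1 processing or paraspeckle assembly, were at −0.01 and −0.05, while Hnrnpa1 was at 0.45 and Pspc1, a paraspeckle core protein, at 0.44. Of 25 nuclear speckle genes, 20 passed among numbers, 4 were higher and 3 lower without overlap, both under the shares over all genes, and the median was 0.04. Srrm2 and Son, the scaffold proteins of speckles, were at 0.02 and −0.16, and Clk1, a kinase that releases splicing factors, at −0.49 and Sf3b1, a spliceosome subunit, at −0.38 were the lowest. Among 14 genes of nuclear RNA decay, 6 were higher and 2 lower without overlap: Zfc3h1, which marks nuclear RNA for the exosome, was at −0.43, and Upf1, the helicase of nonsense-mediated decay through which Gas5 is known to be degraded, at 0.42.

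Gas5 (ENSMUSG00000053332, chr1:161034422-161038539, plus strand) was compared with other snoRNA hosts. Of 18 tested, 15 passed among numbers, where 72.5% of all genes tested did, and none for time. Numbers 3 and 6 were higher than 1 and 4 without overlap for 7 and lower for none, and the median was 0.31, beside 0.00 over all genes tested and 0.40 for Gas5. Over all genes tested, 19.1% were higher and 19.4% lower without overlap. Snhg4 was at 1.07 and Snhg12 at 0.88, while the abundant hosts Eef2, a translation elongation factor, and Tpt1 were at 0.33 and 0.01. The 10 snoRNA rows inside Gas5 on its strand had 0 counts in every library. Whether these libraries and their counting catch RNAs that short was not tested, so the zeros do not show that the snoRNAs were absent. Zbtb37, which overlaps the 5′ end of Gas5 on the opposite strand, averaged 76.9 CPM in numbers 3 and 6 and 78.2 CPM in numbers 1 and 4, a log2 difference of −0.03. Of the 6 tested neighbours of Gas5, none was separated between these sets.

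Other long noncoding RNAs went both ways. Of 18 tested, 12 passed among numbers and none for time, with 2 higher and 4 lower without overlap in numbers 3 and 6 against 1 and 4, and a median of −0.14. Over all genes tested, 72.5% passed, 19.1% were higher and 19.4% lower, so the number that passed and the number lower were near the background. Rpph1, the RNA of RNase P, averaged 3385 ± 613 CPM in numbers 3 and 6 and 3660 ± 448 CPM in numbers 1 and 4 (SD, n = 6 each). Rmrp, the RNA of RNase MRP, averaged 1829 ± 267 CPM and 2291 ± 399 CPM in the same order. Mir22hg, the host of miR-22, was at −1.82 and Trp53cor1, a p53 target, at −1.61. Of 14 other imprinted genes tested, 4 were higher and 2 lower without overlap, and the median was 0.03. Mest and Dcn were at 1.23 and 1.33, Gnas at −0.01 and Igf2r at −0.03. Grb10 at −0.28 and Sgce at −0.26, named after their values were seen, were those lower without overlap.

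**Figure D5:**
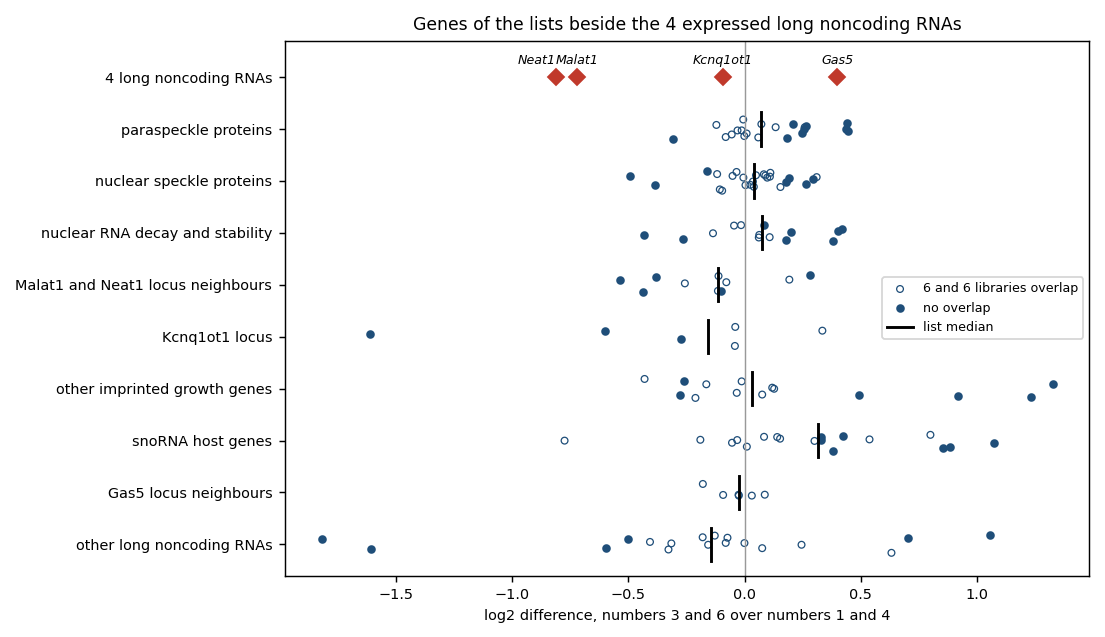
Log2 difference of numbers 3 and 6 over numbers 1 and 4 for each tested gene of 9 lists (circles, filled where the 6 and 6 libraries do not overlap; bars are list medians) beside the 4 expressed members (diamonds). The median of snoRNA host genes is 0.31, that of paraspeckle proteins 0.07 and that of other long noncoding RNAs −0.14.

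Markers moved with the sets beside these RNAs. Immediate early genes summed to 233 to 281 CPM in numbers 3 and 6, 295 to 346 CPM in numbers 2 and 5 and 1806 to 2638 CPM in numbers 1 and 4. Fos averaged 3.41, 5.48 and 182 CPM in that order and Nr4a1 5.99, 10.5 and 110 CPM. Preadipocyte and fibroblast markers summed to 3220 to 3978 CPM in numbers 3 and 6, 2529 to 3372 CPM in numbers 2 and 5 and 1736 to 1967 CPM in numbers 1 and 4, with Thy1 and Lum under 1 CPM. Smooth muscle markers summed to 63.2 to 85.9 CPM, 32.5 to 56.7 CPM and 29.3 to 32.3 CPM in the same order of sets, and brown adipocyte markers to 3571 to 4346 CPM, 3192 to 3649 CPM and 4155 to 4352 CPM. The smooth muscle sums do not speak for every marker. Of 4 tested, only 2 had differences above 0 for numbers 3 and 6 over 1 and 4, both without overlap. Among numbers 2 of the 4 passed, where 72.5% of all genes tested did. Of the 10 brown adipocyte markers, 3 were higher and 3 lower without overlap in numbers 3 and 6 than in 1 and 4, with a median log2 difference of 0.13, and Ucp1, at 1.81, 10.5 and 15.8 CPM in the same order, was among the lower ones. Over all genes tested, 19.1% were higher and 19.4% lower between these 2 sets. Of 5 genes that track RNA quality (ribosomal RNA collectors, mitochondrial ribosomal RNA and Lars2), 5 had differences below 0 for numbers 3 and 6 against both other sets. In each, 1 was without overlap, and 0 passed among numbers. The median was −0.31 against 1 and 4 and −0.87 against 2 and 5. Their sum ran from 112734 to 1485423 CPM in numbers 2 and 5, where 24 h replicate 5 was the highest library. In numbers 3 and 6 the sum ran from 107802 to 128735 CPM. The part of 24 h replicate 5 in the difference against 2 and 5 was not tested. The part of cell state, cell mixture or RNA quality in the levels of Malat1, Neat1 and Gas5 was not tested, and in bulk RNA fewer cells of a type and less RNA per cell cannot be told apart.

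Genes whose log2 CPM most resembled a member over the 18 libraries were sought among 9463 genes. For Malat1 they were Chd2 (r = 0.98), Raph1 (0.98) and Zfp292 (0.98), and for Neat1 Tnfaip8 (0.94), Tet2 (0.94) and Chd7 (0.94). For Gas5 they were Ebna1bp2 (0.95), Tex10 (0.94) and Imp4 (0.94). For Kcnq1ot1 they were Gm37677 (0.92), Pcdhga8 (0.92) and Pcdhga7 (0.91). Malat1 and Neat1 had r = 0.85 with each other, and Gas5 had −0.68 with Malat1 and −0.69 with Neat1. All these points share their libraries, scaling and set structure, so the correlations are descriptions.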

How the data were processed

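The authors deposited 1 table of expected counts per gene for 18 libraries, which they estimated with salmon, per the labels. Per the labels' protocols, RNA of differentiated BMC cells went into strand-keeping total RNA libraries after ribosomal RNA depletion. The tools in the submitters' processing notes are edgeR and limma, and the build is mm10. No source used here gives the salmon version, the annotation or the strand setting. Every per-sample column was used.

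Expected counts were rounded, filtered with filterByExpr (minimum count 10, minimum total 15) and scaled by TMM, and log2 CPM took a prior count of 2. Times were compared by the robust quasi-likelihood F-test of edgeR, two-sided, over all 14788 genes, with Benjamini-Hochberg adjustment at 0.05. Differences among the 6 replicate numbers were tested with time in the model, and differences of sets come from that model. Alternatives were the replicate block, DESeq2, other scalings, no filter and leaving out each library. The numbers were taken to pair the samples, as all 18 same-number correlations were over 0.1. The 18 correlations of numbers 3 apart, 0.24 to 0.69, were over it too, so this check cannot tell pairing by number from likeness within a set. Share intervals are 95%.

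The members, the 19 gene lists (221 of 236 entries matched) and the tests were chosen with earlier results of these data known. Named from each list were the genes of highest mean and those without overlap of largest log2 difference, at most 4. Promoters are from RefSeq (GRCm38.p6), positions and 3′ ends from GENCODE M21. Overlapping genes and close copies share reads, so their values are uncertain. The models were tested on simulated data. Python 3.11.15 was used with pandas 2.3.3, scipy 1.17.1, matplotlib 3.10.9 and numpy 2.4.6, and R 4.3.3 with DESeq2 1.42.0, limma 3.58.1 and edgeR 4.0.16.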

Additional observations from a re-analysis of the deposited data

Results flagged for a closer look

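In numbers 2 and 5, the 24 h replicate 5 library lay far below the other 5 libraries in the share of counts of 3 members. Malat1 held 1.00% of its counts (Wilson 95% interval 0.993% to 1.01%, which covers counting error only), Neat1 0.0354% and Gas5 0.0031%. Of 48 groups examined for a library apart, these 3, or 6.25%, were set apart. The 3 groups hold the same libraries and the same library stood apart in each. They are not independent, so their share cannot be set against a chance rate. Ribosomal RNA collectors took 41.5% of the counts of that library, and after TMM scaling its Malat1 level was 23249 CPM, beside 24693 CPM in 4 h replicate 5.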

How the results depend on the processing

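With the replicate number as a block, edgeR called 1 gene for 24 h against 0 h and 0 genes in both other time comparisons, and it changed no member's call. Leaving out each library gave 0 to 1 genes for 4 h against 0 h and for 24 h against 4 h, the 1 in each without 4 h replicate 3, and 0 for 24 h against 0 h. The following ranges come from the fit without the replicate number and so ignore the pairing. With single libraries left out, these time differences changed sign: at 4 h against 0 h, Malat1 ranged over −0.17 to 0.0056 and Gas5 over −0.074 to 0.045. At 24 h against 0 h, Malat1 ranged over −0.15 to 0.022, Kcnq1ot1 over −0.099 to 0.044 and Gas5 over −0.062 to 0.050. At 24 h against 4 h, Malat1 ranged over −0.077 to 0.11, Neat1 over −0.14 to 0.13 and Gas5 over −0.056 to 0.082. Neat1 kept its sign but not its size: it ranged over −0.32 to −0.027 at 4 h against 0 h and −0.33 to −0.039 at 24 h against 0 h, weakest without 0 h replicate 1 and strongest without 4 h or 24 h replicate 1. Kcnq1ot1 kept its sign at 4 h against 0 h (−0.29 to −0.17) and at 24 h against 4 h (0.14 to 0.28). With library totals and no scaling, Gas5 was −0.14 at 24 h against 0 h and −0.13 against 4 h, Malat1 was −0.14 at 24 h against 4 h, and 4817 genes and 1 member, Neat1, passed among numbers. The cause was not tested, and that setting leaves the ribosomal RNA of 24 h replicate 5 in the total. Among numbers, leaving out each library gave 10272 to 10789 genes and 3 to 4 members, Kcnq1ot1 being the member lost. Without the filter, Meg3 joined Malat1 as separated between numbers 3 and 6 and 2 and 5, making 2 members. For Meg3 this rests on the scaling of equal counts. With the main scaling, 4 h replicate 3, the lowest of numbers 3 and 6, had 2 counts (0.0856 CPM). The highest of numbers 2 and 5, 0 h replicate 5, also had 2 counts (0.0834 CPM). The share of all unfiltered genes separated in this way was not computed. For numbers 2 and 5 against 1 and 4, leaving out 1 library gave 0 to 1 separated members. The members' share was 3.50% of counts without mitochondrially encoded genes, ribosomal RNA collectors and Lars2, and 2.59% to 2.72% with 1 library left out. Of the member values, 558 kept their direction and side of the threshold or, with no test, moved by less than 1 SD between libraries. That still allows changes of size such as that of Neat1. Of the rest, 36 changed direction, 18 were weaker and 8 moved by more. Depth limits Meg3 and H19, where 3 counts are worth up to 0.995 CPM.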
